A study of Mus musculus with 22 samples.

Results

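Gene expression in the hypothalamus was compared between mice labelled IL-6 KO and their wild-type (WT) littermates after an injection of saline, that is, without an inflammatory stimulus. The comparison rested on 4 KO arrays and 4 WT arrays, chosen by the genotype and treatment in their titles, out of 22 arrays in the series. All 19935 genes with a single gene symbol on the array were its members, and probe sets of the same gene were averaged. The series was set up to look for genes that could explain why mice without IL-6 fail to develop fever after lipopolysaccharide (LPS, a bacterial cell wall component). The saline groups are its controls without LPS, and they show how the genotypes differed 3 h after an injection of saline.

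The mice were C57bl6 males aged 9 to 12 weeks, deficient in IL-6 or wild type, born to the same parents and kept 1 to a cage. Each received 1 intraperitoneal injection of saline or of LPS at 120 µg/kg and was killed 3 h later. The animals were perfused with saline, the hypothalamus was dissected, and 200 ng of its RNA was labelled for the array. The other arrays, 7 KO and 7 WT after LPS, were used here for the spread between arrays and as a separate set in which to look at the same genes. The labels did not say how the Il6 allele had been altered, nor that each array held RNA from a separate mouse, so the p-values measure the spread between arrays. In a piece of tissue, fewer cells of a type and less RNA per cell cannot be told apart.

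Interleukin-6 is a secreted cytokine that binds its receptor IL-6R (Il6ra), after which the complex recruits the shared signalling chain gp130 (Il6st). Janus kinases attached to gp130 then phosphorylate STAT3, which enters the nucleus and switches on target genes, among them its own inhibitor Socs3 and, in liver and other tissues, acute-phase genes. In the brain the cytokine is best known as a carrier of the fever signal, and it has also been studied in feeding and energy balance.

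The deposited values are log2 distances from each probe set's median over the 22 arrays. A value of 0 is the median array, and a difference of 1 is a doubling. They hold no level of a gene, so whether hypothalamic markers were present or another tissue's markers absent could not be read from them, and no gene is set against another by level. Array numbers, which the titles give, were spread unequally over the genotypes. The saline arrays numbered 1 to 11 were 1 KO and 3 WT, and those numbered 12 to 22 were 3 KO and 1 WT. With the 4 groups in the fit, 4286 genes (21.5%) differed between the lower and the higher array numbers at an adjusted p under 0.05 (limma with Benjamini-Hochberg adjustment). Genotype differences of the main genes and lists are therefore also given with this array block as a term, or within each block. A pair of the saline arrays stood apart through genes of neighbouring tissue: Ttr, made by the choroid plexus, was at 4.62 in WT replicate 1. In KO replicate 2, Gh was at 3.96 and Prl at 2.90, both hormone genes of the pituitary.

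The targeted gene did not separate the genotypes on this array. Il6 lay at -0.08, -0.11, -0.16 and -0.14 in the 4 KO saline arrays and at -0.17, -0.17, -0.11 and -0.11 in the 4 WT saline arrays. The groups overlapped, and the KO minus WT difference was 0.02 (SE 0.09, 95% interval -0.18 to 0.21, limma adjusted p = 0.982). After LPS the Il6 difference was 0.17 (SE 0.07, limma adjusted p = 0.397), so the signal was not lower in the arrays labelled KO there either. Which part of the transcript the probes detect, and whether the altered allele still makes that part, was not known from the sources used here, so Il6 does not check the genotype labels.

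After saline, a single gene passed the adjusted p threshold of 0.05 between the genotypes. Abhd1, named for the alpha/beta hydrolase family and listed by RefSeq as a transcribed pseudogene, was higher in KO. Its log2 values were 0.38, 0.09, 0.19 and 0.21 in the KO arrays and -0.32, -0.31, -0.13 and -0.46 in the WT arrays. Every KO array lay above every WT array. The difference was 0.52 (SE 0.07, 95% interval 0.36 to 0.67), which is 1.43-fold, with a limma adjusted p = 0.00825. This was 1 of 19935 genes called at an adjusted p under 0.05, or 0.00502%, and no gene was called lower in KO. Unadjusted p-values under 0.05 were found for 1030 genes (5.17%), of which 589 (2.95%) were higher and 441 (2.21%) lower in KO.

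The Abhd1 difference had the same direction in both array blocks and in the mice given LPS. It was 0.59 with the block as a term (limma adjusted p = 2.82e-05), 0.63 among arrays 1 to 11 and 0.62 among arrays 12 to 22. Within a single block, where one genotype is represented by 1 array, it missed the threshold (adjusted p = 0.0694 and 0.0824). On the LPS arrays, none of which enter the saline difference, Abhd1 was higher in KO by 0.46 (SE 0.06, limma adjusted p = 0.000537). There its values ran from 0.09 to 0.33 with a median of 0.23 in KO, and from -0.37 to -0.09 with a median of -0.26 in WT, again without overlap. Averaged over both treatments the Abhd1 difference was 0.49 (limma adjusted p = 5.68e-06).

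The saline call for Abhd1 changed with the arrays used and with the scaling. It was kept in 14 of 21 alternative fits, over which the difference ran from 0.47 to 0.63 and the limma adjusted p from 2.82e-05 to 0.344. The highest adjusted p came from the 8 saline arrays on their own, which gave the same difference of 0.52. The call was also lost after quantile normalization (adjusted p = 0.0801), within either array block, and when WT replicate 1 (adjusted p = 0.0542), KO replicate 1 (0.0788) or WT replicate 4 (0.0779) was left out. The exact permutation test of the 8 arrays, two-sided, gave p = 0.0286, the smallest value that 70 splits allow and the one that any gene without overlap has, so it adds nothing to the absence of overlap.

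**Figure D1:**
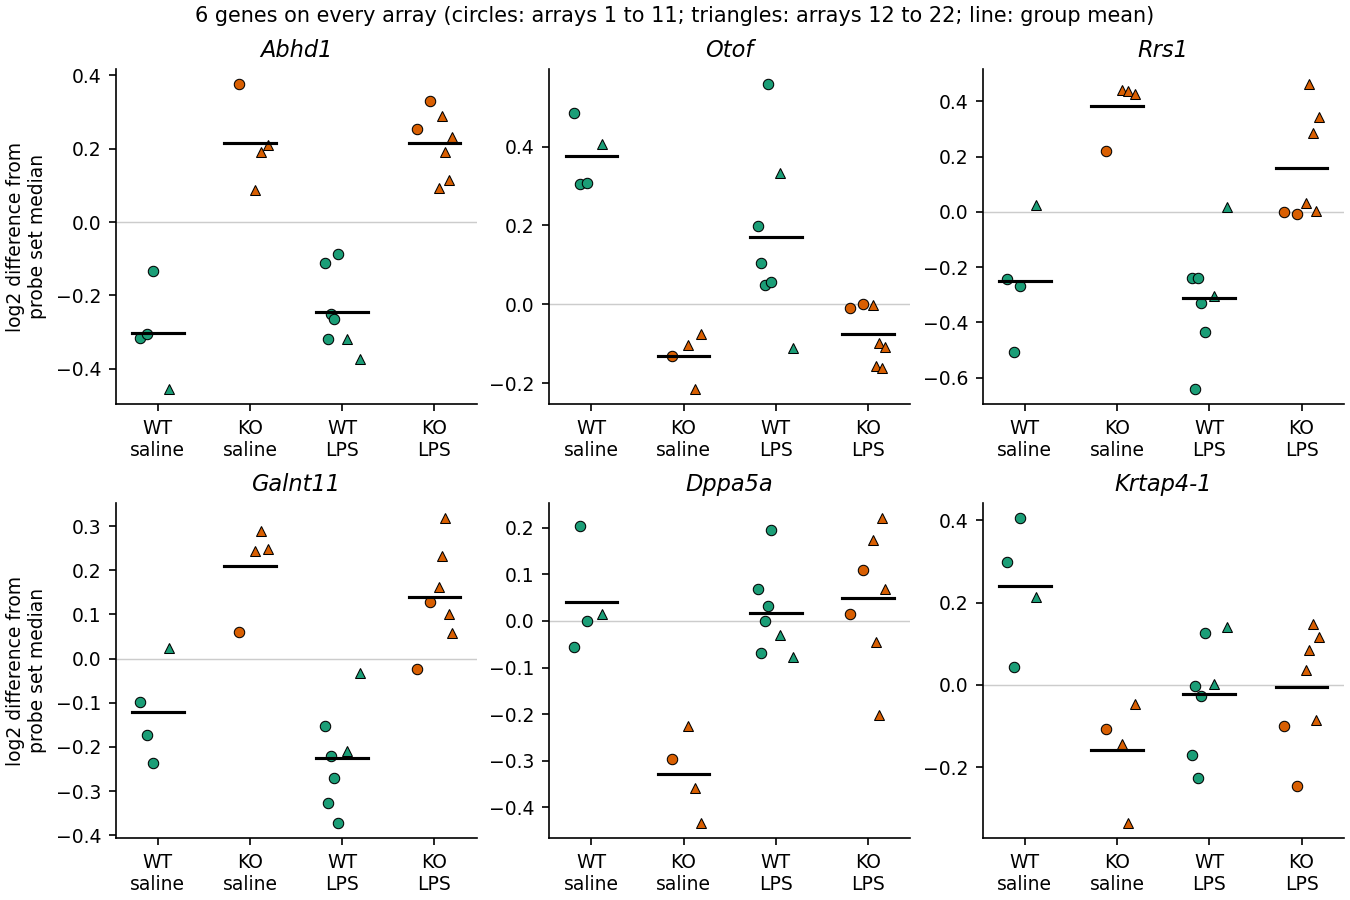
Log2 distance from the probe set median (vertical axis) of 6 genes on each of the 22 arrays, by group; circles are arrays 1 to 11, triangles arrays 12 to 22, and the horizontal line is the group mean. Abhd1, Rrs1, Otof, Galnt11, Dppa5a and Krtap4-1 show no overlap between the saline groups. After LPS, Abhd1 and Galnt11 show none either, while Rrs1, Otof, Dppa5a and Krtap4-1 overlap.

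The 19 other genes among the 10 with the smallest p in each direction did not pass the adjustment and are described by their values. Otof encodes otoferlin, a calcium sensor of vesicle release known from inner hair cells. Its values were -0.13, -0.10, -0.22 and -0.08 in KO and 0.48, 0.30, 0.31 and 0.41 in WT, so that all KO arrays lay lower. The Otof difference was -0.51 (SE 0.09, limma adjusted p = 0.142), the next smallest p after Abhd1, and it was -0.50 and -0.54 within the array blocks. After LPS it was -0.25 (SE 0.07, adjusted p = 0.288), with overlapping arrays.

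Rrs1, a nucleolar factor needed to assemble the large ribosomal subunit, had the largest difference of this set, 0.63 (SE 0.12, limma adjusted p = 0.223). Its values were 0.22, 0.44, 0.44 and 0.42 in KO and -0.24, -0.51, -0.27 and 0.02 in WT. The groups did not overlap, and the WT array nearest to KO was the WT array with a number above 11. With the block as a term the Rrs1 difference was 0.50, and after LPS it was 0.47 (SE 0.09, adjusted p = 0.0622).

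Galnt11, an enzyme that starts mucin-type O-glycosylation, lay at 0.06, 0.24, 0.29 and 0.25 in KO and at -0.10, -0.17, -0.24 and 0.02 in WT. The Galnt11 difference was 0.33 after saline (SE 0.08, limma adjusted p = 0.84) and 0.25 with the block as a term. After LPS it was 0.37 (SE 0.06, adjusted p = 0.0136), where Galnt11 was called.

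On the lower side, Dppa5a, an RNA-binding protein known from embryonic stem cells, lay at -0.30, -0.23, -0.36 and -0.43 in KO and at -0.06, 0.20, -0.0007 and 0.02 in WT. All 4 KO arrays were below all 4 WT arrays, with a difference of -0.37 (SE 0.08, limma adjusted p = 0.442). Krtap4-1, a keratin-associated protein of hair, differed by -0.40 (SE 0.09, adjusted p = 0.84), also without overlap. After LPS the differences of Dppa5a and Krtap4-1 were 0.03 and 0.02.

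The remaining genes with small p were spread over unrelated functions and differed by 0.18 to 0.30 in size. Higher in KO were Smim27 (0.26), 0610009B22Rik (0.30), the tetraspanin Tspan6 (0.28), the nucleotide excision repair factor Xpa (0.19), the N-glycan mannosyltransferase Alg3 (0.22), the minor spliceosome protein Snrnp48 (0.21) and Kti12 (0.26), which acts in tRNA modification. Lower in KO were 1600029O15Rik (-0.29), Erich6b (-0.24), Lrrc75a (-0.25), the growth factor gene Fgf16 (-0.25), the immediate early response gene Ier5 (-0.29), Prps1l1 (-0.18) and the T-type calcium channel gene Cacna1i (-0.21). The limma adjusted p of each of these genes was 0.84.

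Over the 20 genes, the saline arrays did not overlap for 18, beside 593 of all 19935 genes (2.97%) whose saline groups did not overlap. These 20 were picked for small p on these arrays, so that count is a description.

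**Figure D2:**
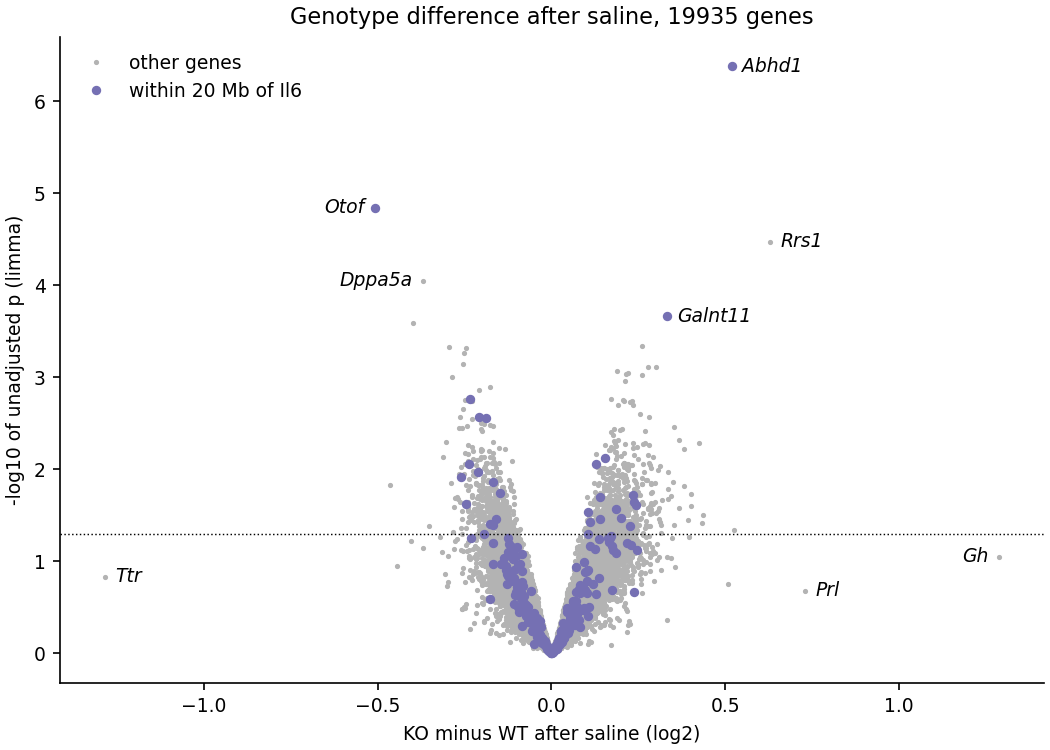
KO minus WT difference after saline (horizontal axis, log2) against -log10 of the unadjusted limma p (vertical axis) for 19935 genes; genes within 20 Mb of Il6 are in purple and the dotted line marks an unadjusted p of 0.05. Abhd1 stands above all other genes, and Gh, Ttr and Prl have large differences with little support.

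The LPS arrays gave a view of the same genotype difference that shares no array with the saline comparison, although both share the unequal array numbers, the centring and the estimate of spread. Of the 10 genes with the smallest p and higher values in KO after saline, 10 were also higher after LPS, 8 of them with an unadjusted p under 0.05 there, beside 7.19% of all genes with such a p and higher values in KO after LPS. Of the 10 lower in KO, 8 were lower after LPS, 3 with an unadjusted p under 0.05, beside 4.18% of all genes in that direction. The 2 directions together came to 11.4% of all genes, and to 5.17% with the array block as a term. The counts above are from the fit without that term. Abhd1 and Galnt11 were among the 8 genes (0.0401%) that the LPS comparison called.

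Among all 1030 genes with an unadjusted p under 0.05 after saline, 893 (86.7%) had the same sign after LPS, beside 13856 (69.5%) of all genes. Of these 1030 genes, 309 (30%) also had an unadjusted p under 0.05 with that sign after LPS, beside 10.1% of all genes. The test of whether the genotype difference itself changed with treatment called 0 genes in limma, and 327 genes (1.64%) had an unadjusted p under 0.05. Among those were 8 of the 10 genes with the smallest p and lower values in KO after saline. Of the 10 higher in KO, 1 was among them. These genes were picked by their saline differences, which also enter that test. When the treatments were averaged, 5 genes were called (0.0251%): Abhd1, Galnt11, Rrs1 and Psmb5 higher, and Otof lower. With the array block as a term 3 were called (0.015%), and those were Abhd1, Galnt11 and Rrs1.

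**Figure D3:**
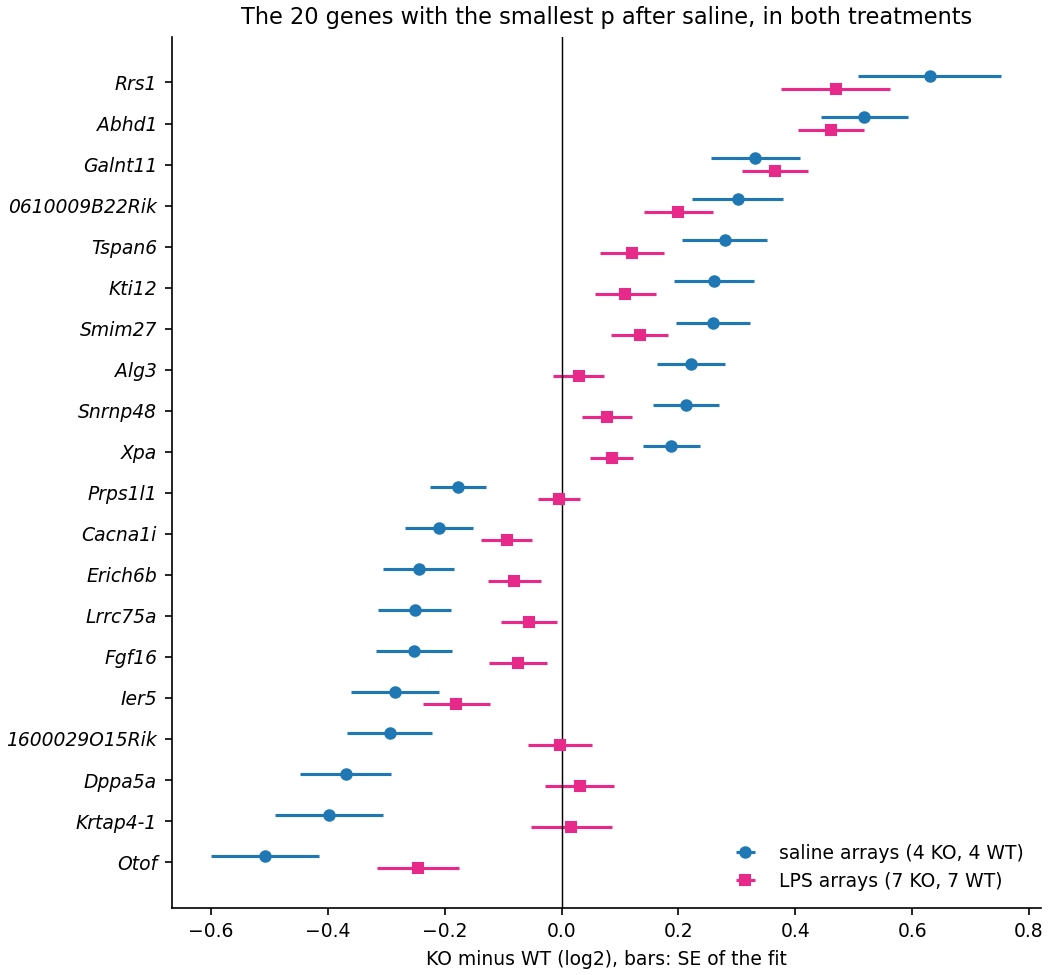
KO minus WT difference (horizontal axis, log2) after saline (circles, 4 KO and 4 WT arrays) and after LPS (squares, 7 and 7) for the 20 genes with the smallest p after saline, 10 in each direction; bars are SE of the fit. The direction was the same in both treatments for 18 genes; the exceptions are Dppa5a and Krtap4-1.

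Genes called between the genotypes after LPS were mostly not called after saline. The saline groups had fewer arrays, and whether that accounts for the missing calls was not tested. The test of whether the genotype difference changed with treatment called 0 genes. Lcn2, the iron-binding acute-phase protein lipocalin-2, lay between -2.42 and -2.32 in the KO saline arrays and between -2.66 and -2.24 in the WT saline arrays. These ranges overlapped, and the difference was 0.04 (SE 0.23, limma adjusted p = 0.982), beside -1.04 after LPS (SE 0.17, adjusted p = 0.0164). The saline and LPS differences were -0.07 and -0.67 for Tmem252, -0.07 and -0.48 for the transglutaminase gene Tgm2, and -0.09 and -0.43 for Map3k8, a kinase of the toll-like receptor pathway. The mitochondrial ribosomal protein gene Mrpl2 had differences of 0.06 and 0.25. Each of these was called after LPS and none after saline. With the array block as a term these LPS calls were lost, with a limma adjusted p of 0.0722 for Lcn2, Tmem252, Tgm2 and Map3k8 and 0.195 for Mrpl2. Psmb5, a catalytic subunit of the proteasome, had a saline difference of 0.19 (SE 0.06, adjusted p = 0.84) with no overlap between the arrays, and differed by 0.28 after LPS (adjusted p = 0.0164, and 0.0722 with the block as a term).

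Abhd1, Otof and Galnt11 lie on chromosome 5, as does Il6. By the RefSeq table of assembly GRCm38.p6, used here only for which genes are neighbours, Otof lies 0.35 Mb, Abhd1 0.93 Mb and Galnt11 4.75 Mb from Il6. The array covered 251 genes with a known position within 20 Mb of Il6. Among them 1 was called after saline, and 27 (10.8%) had an unadjusted p under 0.05, 14 higher and 13 lower in KO. That share was 4.93% of the 892 genes elsewhere on chromosome 5, 5.10% of the genes on other chromosomes and 5.17% of all genes. It was 13.9% (16 of 115) within 5 Mb and 17.6% (6 of 34) within 1 Mb of Il6. With the array block as a term it was 9.96% within 20 Mb, beside 3.26% of all genes. Neighbouring genes are not independent of each other, and these shares are given without a test.

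Of the 27 genes near Il6, 24 had the same direction after LPS, a share close to the 86.7% of all genes with an unadjusted p under 0.05 after saline. An unadjusted p under 0.05 with that direction after LPS was found for 17 of the 27, beside 309 of those 1030 genes. Their roles vary. Selenoi, a phospholipid enzyme gene 0.21 Mb away, differed by 0.23 after saline and 0.27 after LPS, although within arrays 12 to 22 the saline difference was -0.10. Atraid differed by -0.21 and -0.22, and Dpp6, an auxiliary subunit of potassium channels, by -0.19 and -0.15. Mrpl33, of the mitochondrial ribosome, differed by 0.20 and 0.23, and Rint1, a tethering factor between Golgi and endoplasmic reticulum, by -0.24 and -0.18. Others differed less after LPS. Hgfac, a protease that activates hepatocyte growth factor, differed by -0.23 after saline and -0.07 after LPS, and the fructose kinase gene Khk by 0.19 and -0.01. None of these was called. They were picked after their values were seen.

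Abhd1 overlaps a neighbour, Preb, over 3429 of its 5030 bases. Preb encodes a guanine nucleotide exchange factor of the endoplasmic reticulum. Its values were 0.11, 0.05, 0.17 and 0.04 in KO and -0.03, 0.01, -0.03 and -0.01 in WT, higher in every KO array. The Preb difference was 0.11 (SE 0.05, limma adjusted p = 0.84), beside 0.52 for Abhd1, and 0.05 after LPS. Where the probes of either gene lie in the shared stretch was not examined.

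**Figure D4:**
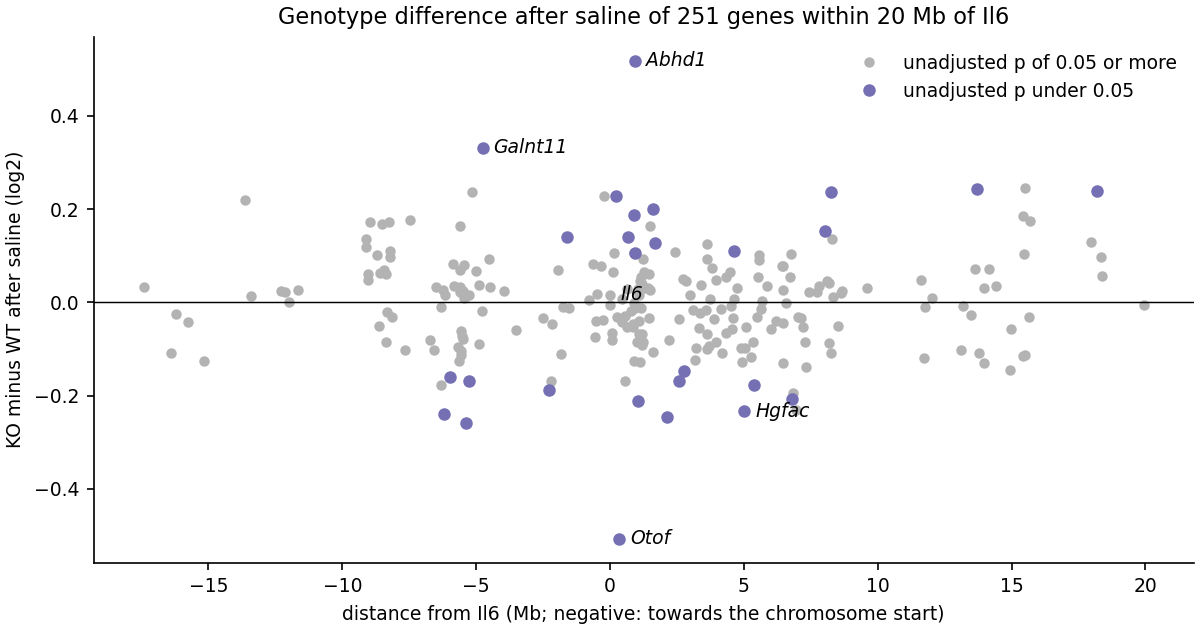
KO minus WT difference after saline (vertical axis, log2) of 251 genes by distance from Il6 in Mb (horizontal axis, negative towards the chromosome start); purple points have an unadjusted limma p under 0.05. Abhd1, Otof and Galnt11 lie farthest from 0, and Il6 itself lies at 0.02.

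The signalling chain of IL-6 showed no called difference after saline. The receptor gene Il6ra lay between -0.28 and -0.08 in KO and between -0.22 and -0.04 in WT, with a difference of -0.10 (SE 0.07, limma adjusted p = 0.84). Its co-receptor gene Il6st differed by 0.05 (SE 0.06). The feedback inhibitor gene Socs3 differed by -0.07 (SE 0.09). For all 3 the arrays overlapped, and the 95% intervals of the differences were -0.25 to 0.05, -0.08 to 0.18 and -0.25 to 0.11. These genes were picked for their place in the pathway.

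Of 13 measured ligand and receptor genes of the IL-6 family, 0 were called and 10 lay below 0, with a median difference of -0.06 beside -0.0022 over all genes, of which 10196 of 19935 lay below 0. The median of this list was -0.08 with the array block as a term, -0.13 within arrays 1 to 11 and -0.10 within arrays 12 to 22. After LPS it was -0.02. The lowest gene of the list after saline was Il27, a subunit of interleukin-27, at -0.30 (SE 0.10, limma adjusted p = 0.84). All KO arrays lay below all WT arrays for Il27. The cardiotrophin-like cytokine gene Clcf1 differed by -0.16 and the oncostatin receptor gene Osmr by -0.19 (SE 0.16). Of 17 JAK, STAT and SOCS genes, 0 were called and 12 lay below 0, with a median of -0.02 that became -0.0042 with the block as a term. Stat3 itself differed by -0.10 (SE 0.07).

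The acute-phase and STAT3-linked genes, which contain several downstream targets of the pathway, were close to 0 without the stimulus. Of 21 measured, 16 lay below 0 and 1, Il4ra at -0.17 (SE 0.07), had an unadjusted p under 0.05. The median was -0.04, and -0.01 with the block as a term. After LPS the median of the same genes was -0.11, and 9 had an unadjusted p under 0.05, all lower in KO. Among all genes, 4.18% had such a p and lower values in KO after LPS. These LPS values are from the fit without the block. Steap4, a metalloreductase, differed by -0.20 after saline and -0.41 after LPS, and Serpina3n, a protease inhibitor of reactive astrocytes, by -0.02 and -0.35, the saline value being 0.09 with the block as a term.

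Inflammatory genes gave no call in the absence of LPS. Of 23 cytokine and chemokine genes, 0 were called and none had an unadjusted p under 0.05, with a median of 0.01. Il1b and Tnf, the other classical pyrogenic cytokines, differed by -0.01 (SE 0.14) and -0.03 (SE 0.06). Among 19 genes of toll-like receptor 4 and NF-kB signalling, the transcription factor genes Rela (-0.19, SE 0.08) and Relb (-0.17, SE 0.08) were lower in all KO arrays than in any WT array, with a limma adjusted p of 0.84 each. With the block as a term Rela and Relb differed by -0.11 and -0.15. Saline groups without overlap, in either direction, were found for 2.97% of all genes. The interferon-stimulated genes (25 measured), complement genes (11) and antigen-processing genes (12) had medians of -0.02, -0.03 and -0.02, with 0 called. With the block as a term these were -0.01, 0.02 and 0.0083, and the medians of the cytokine and NF-kB lists were 0.03 and 0.01, the latter beside -0.04 without it.

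The prostaglandin E2 genes, which act between cytokines and fever, gave no called gene among 13. Hpgd, which degrades prostaglandins, differed by 0.21 (SE 0.08, limma adjusted p = 0.84), all KO arrays lying above all WT arrays, and the prostaglandin carrier gene Slco2a1 by -0.16 (SE 0.06). Ptgs2, the inducible cyclooxygenase, differed by -0.20 with an SE of 0.25. The receptor gene Ptger3, through which prostaglandin E2 acts on preoptic neurons in fever, differed by -0.06 (SE 0.06). The list had a median of -0.0086, and 0.03 with the block as a term.

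Hypothalamic peptide genes were also without a call. Of 19 energy-balance genes 15 lay above 0, with a median of 0.06 (0.03 with the block as a term), and of 16 neuroendocrine genes 9 did, with a median of 0.04 in both fits. Pomc, the melanocortin precursor, differed by -0.03 (SE 0.09), and Crh, the releasing hormone of the stress axis, by 0.09 (SE 0.08). Hcrt, the orexin precursor, had 0.25 (SE 0.13) after saline and 0.30 (SE 0.10) after LPS, and Cck had 0.26 (SE 0.17), neither called. Among 18 genes of thermoregulation and of hypothalamic regions the median was -0.05, and the mammillary gene Foxb1 differed by -0.12 (SE 0.05). Thyroid hormone genes (9 measured), clock genes (17) and glucocorticoid-responsive genes (15) had medians of -0.02, 0.0002 and -0.0060, and of -0.04, 0.05 and 0.06 with the block as a term. The glucocorticoid receptor gene Nr3c1 differed by 0.13 (SE 0.06).

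A few lists lay mostly on one side of 0, each with 0 genes called. Of 19 constitutive proteasome subunits, 18 lay above 0, with a median of 0.11 that was 0.06 with the block as a term, 0.09 within arrays 1 to 11 and 0.01 within arrays 12 to 22. The mean over the subunits on each array was 0.05, 0.06, 0.16 and 0.06 in KO and -0.02, -0.07, -0.10 and 0.07 in WT, where the highest WT value belonged to the WT array with a number above 11. The groups overlapped. After LPS the subunits had a median of 0.14, and 10 of 19 had an unadjusted p under 0.05, all higher in KO. Among all genes, 7.19% had such a p and higher values in KO after LPS. On the LPS arrays numbered 1 to 11, the means over the subunits were -0.13 and -0.04 in KO and -0.19 to -0.07 in WT. On those numbered 12 to 22 they were 0.10 to 0.17 in KO, and -0.09 and 0.06 in WT. Of 12 heat-shock and cold-inducible genes 11 lay above 0, with a median of 0.12 that was 0.05 with the block as a term, 0.15 within arrays 1 to 11 and 0.02 within arrays 12 to 22. Examples are the cold-inducible RNA-binding protein genes Rbm3 (0.17, SE 0.06) and Cirbp (0.17, SE 0.08) and the endoplasmic reticulum chaperone gene Hspa5 (0.18, SE 0.08). Of 20 immediate early genes 15 lay below 0, with a median of -0.08 that was -0.06 with the block as a term, -0.09 within arrays 1 to 11 and -0.0060 within arrays 12 to 22. The list was led by the AP-1 subunit genes Junb (-0.25, SE 0.08) and Fosl2 (-0.25, SE 0.10), while Fos differed by -0.09 (SE 0.11). Fosl2 is also 1 of the genes near Il6. Whether these medians go with the markers below was not tested.

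**Figure D5:**
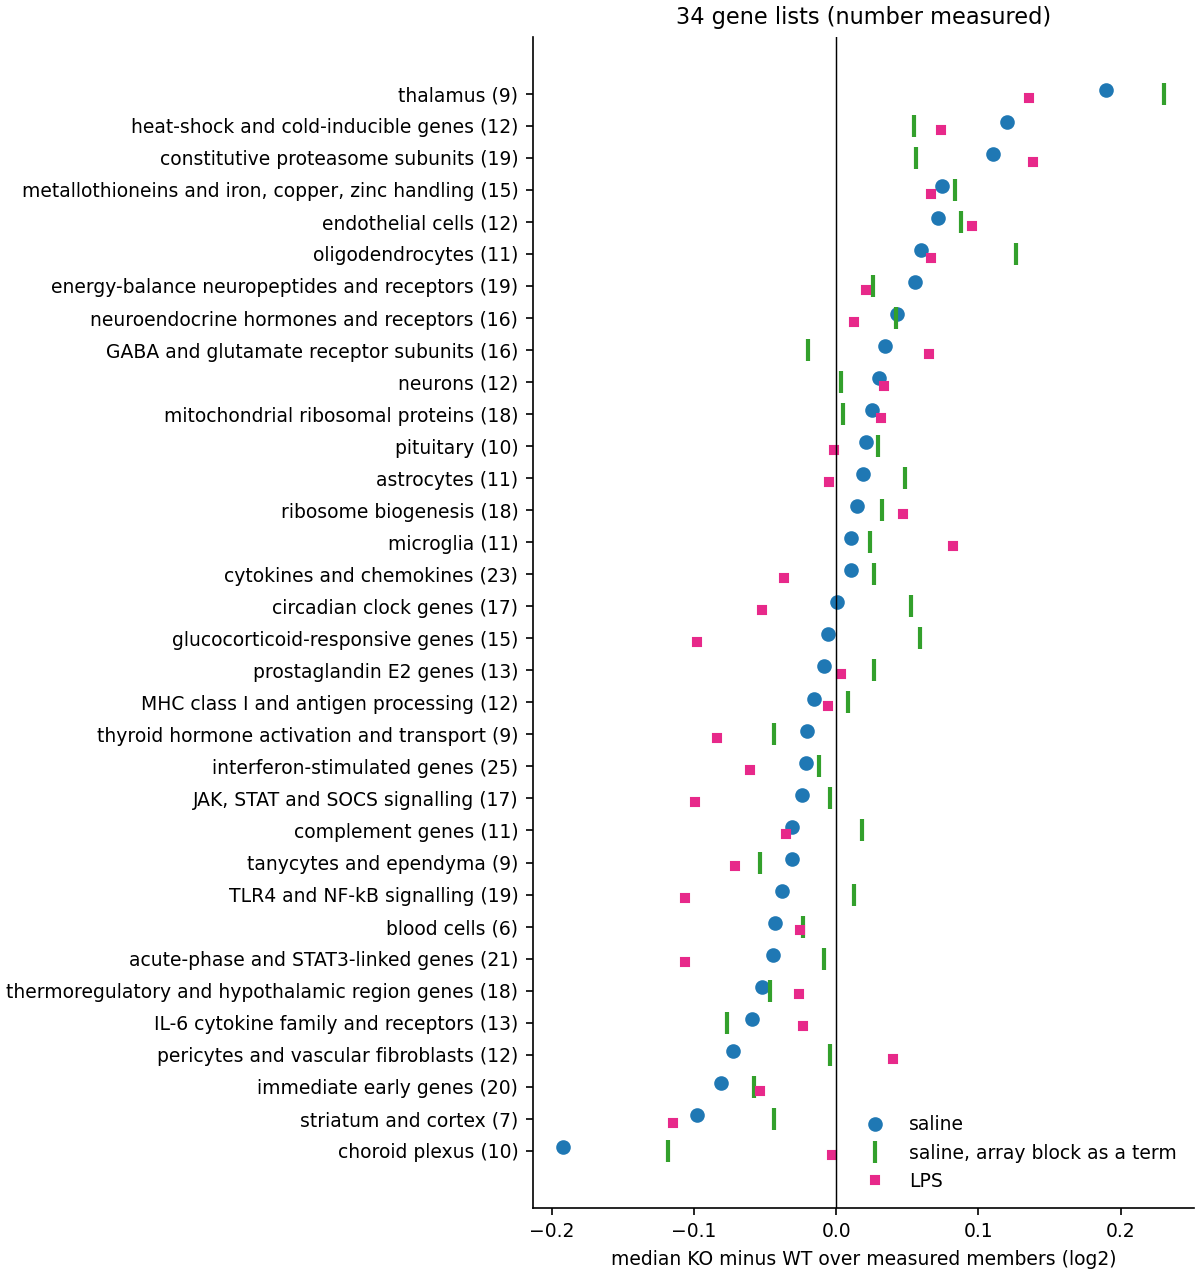
Median KO minus WT difference (horizontal axis, log2) over the measured members of 34 gene lists (vertical axis, number measured in parentheses) after saline (circles), after saline with the array block as a term (bars) and after LPS (squares). Saline medians run from -0.19 for choroid plexus genes to 0.19 for thalamus genes, 17 above 0 and 17 below.

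Over all 34 lists, which hold 470 measured genes, no gene was called and 22 (4.68%) had an unadjusted p under 0.05, beside 5.17% of all genes. The outermost medians belonged to tissue markers. For 10 choroid plexus genes the median was -0.19, 9 lay below 0, and the mean over the list ran from -0.14 to 0.13 in KO arrays and from -0.08 to 0.89 in WT arrays, the highest being WT replicate 1. The choroid plexus median was -0.12 with the block as a term, -0.29 within arrays 1 to 11 and 0.07 within arrays 12 to 22. For 9 thalamus genes the median was 0.19, 8 lay above 0, and the array means ran from -0.43 to 0.18 in KO and from -0.61 to 0.24 in WT. The lowest thalamus means were those of WT replicate 1 (-0.61), WT replicate 4 (-0.51) and KO replicate 3 (-0.43). In the other saline arrays they lay between 0.03 and 0.24. For 10 pituitary genes the median was 0.02, and the array means ran from -0.02 to 0.80 in KO, the highest being KO replicate 2, and from -0.04 to 0.04 in WT. For 7 striatal and cortical genes the median was -0.10. With the block as a term the medians of the thalamus, pituitary and striatal lists were 0.23, 0.03 and -0.04. The ranges of the genotypes overlapped in each of these lists.

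The lists of cell type markers had medians between -0.07 and 0.07. They were 0.03 for neurons (12 genes), 0.02 for astrocytes (11), -0.03 for tanycytes and ependyma (9), 0.06 for oligodendrocytes (11), 0.01 for microglia (11), 0.07 for endothelial cells (12), -0.07 for pericytes and vascular fibroblasts (12) and -0.04 for blood cells (6), all with 0 called. With the block as a term the medians were 0.0032, 0.05, -0.05, 0.13, 0.02, 0.09, -0.0047 and -0.02 in the same order. Array means overlapped between the genotypes for each. The myelin junction gene Cldn11 (0.26, SE 0.11) was higher in all KO arrays than in any WT array. The microglial gene Tmem119 differed by -0.17 (SE 0.08), with overlap. It was the lowest of the 11 microglial genes, of which 7 lay above 0, the highest being Fcrls at 0.14.

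The median difference over all genes was 0.05 in size, 99% of genes differed by less than 0.25, and the median SE was 0.07, at which a difference of 0.15 reaches an unadjusted p of 0.05. Only 2 genes (0.01%) differed by more than 1 in size. They were Gh, at 1.29 (SE 0.72, limma adjusted p = 0.84), and Ttr, at -1.28 (SE 0.85, adjusted p = 0.84). Each rested mainly on a single array: without KO replicate 2 the other KO values of Gh were 0.45, 0.47 and -0.25, and without WT replicate 1 the other WT values of Ttr were 0.48, 0.11 and -0.27. Prl, with a difference of 0.73 (SE 0.56), was likewise at 2.90 in KO replicate 2 and between -0.22 and 0.10 in the other KO arrays. Abhd1, by contrast, was called with both of these arrays left out.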

How the data were processed

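The authors deposited log2 values of 28815 probe sets on 22 Affymetrix arrays, made with RMA per the submitters' processing notes (version and genome build not given in the sources used here). They had been centred: no probe set's median exceeded 7.02e-07 in size, so each is a difference, not a level. Log base 2 was inferred from the step size of the values. Precision is limited by the number of arrays, which have no read depth.

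Names came from the platform annotation, with symbols updated by gene ID through RefSeq GRCm38.p6 (21689 of 21780 matched). The 7035 probe sets with several symbols or none were left out, and several probe sets of a gene were averaged (998 genes). The mean of each group was fitted over all 22 arrays with limma 3.58.1 in R 4.3.3 (default empirical Bayes, two-sided, Benjamini-Hochberg over 19935 genes, called at an adjusted p under 0.05), after tests on simulated data. The design pairs no arrays, since replicates are numbered in deposition order. Alternatives changed the arrays, the array block, the scaling, the weights, the moderation and the probe sets. List counts and medians were given without a set test.

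The text names the called gene, the 10 smallest p per direction, called genes near Il6 or in the averaged contrast, 1 or 2 genes per list and 10 standing genes (Il6, Il6ra, Il6st, Socs3, Lcn2, Pomc, Crh, Ttr, Gh and Prl). Some uncalled list genes were left out for length, and other names were chosen after their values were seen. The comparison, gene lists and array blocks were chosen with earlier results of these data known.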

Additional observations from a re-analysis of the deposited data

Results flagged for a closer look

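Single saline arrays that lay far from the other 3 of their group were sought with Dixon's test in 244 groups (122 named genes by 2 genotypes), and 16 were found; chance alone gives about 1 in 20 groups. Among genes with the smallest p, Rrs1 lay at 0.22 in KO replicate 1 beside 0.42 to 0.44 in the other KO arrays, and Tspan6 lay at -0.29 in WT replicate 3 beside -0.02 to 0.0023. The neighbouring-tissue genes were among them. The choroid plexus gene Ttr was at 4.62 in WT replicate 1 beside -0.27 to 0.48, and at 1.23 in KO replicate 2 beside -0.64 to -0.38. Prl, of the pituitary, lay at 2.90 in KO replicate 2 beside -0.22 to 0.10. Ppp1r1b, a dopamine-signalling gene of the striatum, lay at 0.39 in the same KO array beside -0.25 to -0.17.

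In signalling genes, the kinase gene Map3k8 lay at -0.093 in WT replicate 2 beside -0.33 in each of the other WT arrays. Socs3 lay at 0.16 in KO replicate 4 beside -0.26 to -0.22, and the transcriptional repressor gene Bcl6 at -0.22 in KO replicate 1 beside -0.63 to -0.60. The prostaglandin genes Hpgd and Slco2a1 both had WT replicate 2 apart, Hpgd at 0.10 beside 0.27 to 0.30 among the other WT arrays for the lowest value, and Slco2a1 at 0.22 beside -0.05 to -0.0006 for the highest. WT replicate 4, the WT saline array with a number above 11, was apart for the chaperone gene Hspa5 at 0.14 beside -0.10 to -0.07 and for the microglial gene Gpr34 at 0.13 beside -0.01 to 0.0087. The clock gene Cry1 lay at 0.012 in KO replicate 4 beside 0.13 to 0.14, the collagen gene Col1a1 at 0.21 in KO replicate 3 beside -0.11 to -0.07, and the potassium channel subunit gene Dpp6 at 0.18 in WT replicate 1 beside 0.06 to 0.08.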

How the results depend on the processing

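The count of genes called after saline was 1. It was 0 on the 8 saline arrays alone, within arrays 1 to 11, within arrays 12 to 22 and after quantile normalization, and 3 (Abhd1, Rrs1 and Otof) when the less variable genes were left out. Leaving out 1 saline array gave 0 to 1, the 0 being without WT replicate 1, KO replicate 1 or WT replicate 4. The LPS count of 8 became 2 with the array block as a term, 1 within arrays 1 to 11, 1 within arrays 12 to 22, 16 after quantile normalization, 614 with array weights and 16 without the less variable genes; leaving out a saline array gave 7 to 8. The averaged count of 5 became 3 with the block as a term, 1 within either block, 2054 with array weights, 18 over all probe sets and 3 without the pair of arrays that carry neighbouring-tissue genes; leaving out a saline array gave 4 to 14, with 14 without KO replicate 1 and 13 without WT replicate 4. The causes were not tested. The treatment interaction called 0 genes in each alternative run. No paired analysis was possible because the replicate numbers only follow deposition order.

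Some uncalled single-gene differences changed sign. Within arrays 1 to 11 these were Bcl6 (0.079), Tnfrsf1b (-0.037), Rbfox3 (0.047), Flt1 (0.062), Cga (-0.19), Ptprc (-0.021), Il6ra (0.037), Prl (-0.18), Mrpl2 (-0.12), Serpina3n (0.089) and Ptgs2 (0.0093). Within arrays 12 to 22 they were Jak2 (-0.14), Mt2 (-0.032), Ghr (-0.014), Psmb9 (0.011), Il6 (-0.031), Pomc (0.12), Crh (-0.11), Ttr (0.34), Map3k8 (0.038), Serpina3n (0.086), Il1b (0.030), Selenoi (-0.098) and Rny1 (-0.15). With the block as a term Il6 was -0.0030, Tgm2 0.029, Serpina3n 0.088, Il1b 0.011 and Tnf 0.0027, and with it as a random block Serpina3n was 0.041 and Il1b 0.0029. With array number as a covariate Il6 was -0.017, Serpina3n 0.047 and Tnf 0.0013, and with array weights Pomc was 0.019 and Il1b 0.0019. Without the pair of neighbouring-tissue arrays, Ramp3 was -0.067, Ptprc -0.0017, Prl -0.024 and Serpina3n 0.0996. Leaving out 1 array moved Lcn2 between -0.041 and 0.10, Pomc between -0.091 and 0.019, Prl between -0.0021 and 1.04, Il1b between -0.063 and 0.052 and Serpina3n between -0.11 and 0.064. Abhd1 kept its sign in every alternative run. Counted over every list and alternative fit, a list median moved by more than the spread of array means 34 times and stayed within it 408 times; on leaving out an array it moved 7 times and stayed 265 times.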

Other observations

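Genes of basic cell function were also compared after saline. Of 18 ribosome biogenesis genes 11 lay above 0, with a median of 0.01, and Rrs1 at 0.63 stood far from the next gene of the list, the nucleolar chaperone gene Npm1 at 0.25 (SE 0.15); the box C/D snoRNP gene Nop56 differed by 0.19 (SE 0.09). Of 18 mitochondrial ribosomal protein genes 12 lay above 0, with a median of 0.03, and the highest was 0.10. Of 15 genes of metallothionein and metal handling 12 lay above 0, with a median of 0.07, among them Mt2 at 0.35 (SE 0.17) and the transferrin receptor gene Tfrc at 0.25 (SE 0.14). Of 16 GABA and glutamate receptor subunit genes 10 lay above 0, with a median of 0.03 that was -0.02 with the array block as a term. With that term the medians of the ribosome biogenesis, mitochondrial ribosomal and metal lists were 0.03, 0.0047 and 0.08. The mitochondrial ribosomal median was 0.0086 within arrays 1 to 11 and -0.03 within arrays 12 to 22. None of these genes was called.

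A pair of the largest saline differences, those of Fabp7 and Rny1, was much smaller with the array block in the fit. Fabp7, a fatty acid binding protein of radial glia and astrocytes, differed by 0.52 (SE 0.25, limma adjusted p = 0.84). Its KO values were -0.14 in the array numbered up to 11 and 0.92, 0.65 and 0.59 in the others, and its WT values were -0.42, -0.23 and -0.02 in the arrays numbered up to 11 and 0.59 in the other. With the block as a term the Fabp7 difference was 0.18. Rny1, a small non-coding Y RNA, differed by 0.51 (SE 0.36), and by 0.15 with the block as a term. Its KO values were -0.20 and then 0.51, 0.90 and 0.21, and its WT values were -0.13, -0.39 and -0.78 and then 0.69, split in the same way. By contrast, G530011O06Rik differed by -0.47 (SE 0.18, adjusted p = 0.84), and by -0.50 with the block as a term. Of the 7035 probe sets without a single gene symbol, limma called 0 after saline, and 279 (3.97%) had an unadjusted p under 0.05. The genes of this paragraph were picked with their values known.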
